A study of Homo sapiens with 12 samples.

Results

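The 10 genes described here encode parts of the NF-kB pathway, among them the subunits NFKB1, NFKB2, RELA and RELB. The others are the inhibitors NFKBIA, NFKBIB and NFKBIE, the related BCL3, the feedback enzyme TNFAIP3 and the receptor TNFRSF1A. All 10 were chosen by name, with NFKBIA and TNFRSF1A in front because both were known to be low after 1 h in these data. Of the 10 genes, 7 are among the 5759 genes of the authors' deposited table, and NFKB1, RELB and BCL3 are not analysed here. The cells were MOLT4, an established human T lymphoblast line labelled wild type, and each of 4 groups held 3 samples. The groups were DMSO vehicle for 6 h, SNS-032 at 1 µM for 6 h, and compound 955 at 0.1 µM, taken either after 1 h or after 6 h. SNS-032 inhibits cyclin-dependent kinases, among them CDK9, and is the target-binding part of 955, a piperlongumine conjugate meant to degrade the proteins it binds. Dose differed between the compounds, and the vehicle was collected at 6 h only, so at 1 h the effect of 955 and that of time in culture cannot be told apart.

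NF-kB factors are dimers of Rel-domain proteins that IkB proteins hold inactive in the cytoplasm. A signal from a receptor such as TNFRSF1A activates the IkB kinase complex, the IkB protein is destroyed, and the dimer enters the nucleus and activates genes whose control regions hold kB sites. Several of those genes, among them NFKBIA, NFKBIE, TNFAIP3 and NFKB2, encode parts of the pathway itself, so the system restrains or refills itself through new transcription. In T cells the same kinase complex is reached from the antigen receptor.

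The promoters are shown because this feedback works through kB sites near the start of transcription. RefSeq windows (GRCh38.p14) were found for 8 of the 10 genes, some with more than 1 start, and none was found for NFKBIE or RELB. Each printed sequence is the 250 bases before 1 start, read 5′ to 3′ on the gene's strand, and capitals mark matches to the kB consensus on either strand. That consensus is 3 G, a purine, any 2 bases, 2 pyrimidines and 2 C, and matches may overlap. The windows lie at chr14:35404750-35404999 (minus strand) for NFKBIA, chr6:137867009-137867258 (plus) for TNFAIP3, chr10:102395455-102395704 (plus, the most downstream of 3 starts) for NFKB2 and chr12:6342077-6342326 (minus) for TNFRSF1A. NFKBIA, TNFAIP3 and TNFRSF1A had lower values after 1 h, and NFKB2 is the member with higher values at 6 h.
NFKBIA: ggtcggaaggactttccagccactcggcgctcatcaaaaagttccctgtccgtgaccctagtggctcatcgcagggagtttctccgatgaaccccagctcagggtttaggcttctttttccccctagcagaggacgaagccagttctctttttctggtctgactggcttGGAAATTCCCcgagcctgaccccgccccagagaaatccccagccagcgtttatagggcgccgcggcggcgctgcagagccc
TNFAIP3: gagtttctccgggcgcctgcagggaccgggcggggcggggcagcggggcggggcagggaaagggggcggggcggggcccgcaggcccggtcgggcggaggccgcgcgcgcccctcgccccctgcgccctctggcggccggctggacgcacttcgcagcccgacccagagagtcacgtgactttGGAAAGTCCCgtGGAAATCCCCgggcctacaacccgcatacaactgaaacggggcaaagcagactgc
NFKB2: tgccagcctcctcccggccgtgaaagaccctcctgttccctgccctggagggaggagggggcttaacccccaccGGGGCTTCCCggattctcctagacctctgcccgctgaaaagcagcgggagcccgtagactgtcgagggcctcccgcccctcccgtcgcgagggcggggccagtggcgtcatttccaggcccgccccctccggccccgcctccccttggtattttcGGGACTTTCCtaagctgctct
TNFRSF1A: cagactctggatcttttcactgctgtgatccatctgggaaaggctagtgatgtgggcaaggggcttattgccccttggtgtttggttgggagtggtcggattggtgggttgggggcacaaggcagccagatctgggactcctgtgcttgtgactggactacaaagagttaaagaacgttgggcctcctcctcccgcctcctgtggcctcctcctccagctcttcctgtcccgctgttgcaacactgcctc

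The NFKBIA match lay 81 to 72 bases before the start. In the printed NFKB2 window a match lay 21 to 12 bases before the start, and another at 176 to 167 bases read as a match on both strands. TNFAIP3 had 2 matches, at 67 to 58 and 55 to 46 bases. NFKBIB in 1 of 2 windows and NFKB1 in 1 of 2 windows also held the motif, so 5 of the 8 genes with a window had it, and TNFRSF1A, RELA and BCL3 had no match in their windows. Over all 35116 windows of 250 bases in the RefSeq table, 9.96% held the kB consensus. Counted per gene, the share was 14.5% of the 4534 listed genes with a window. The 8 genes were also counted per gene, but NFKB1 and BCL3 among them are not listed genes. A gene with several windows has more chances to match. NFKBIA also had a TATAAA match at 33 to 28 bases on the other strand, a motif found in 10.7% of the windows. Over the series, 656 listed genes had the kB consensus in a window, and their median log2 fold change after 1 h of 955 was -0.03, against -0.08 for the 4534 listed genes with any window. Of the 656 genes 6.55% were past the threshold and lower at 1 h, against 8.09% of the 4534.

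For each listed gene and treated group, the authors' deposited table holds a log2 fold change against DMSO, its F statistic and its false discovery rate (FDR). Past the threshold means an FDR under 0.05 together with a log2 fold change of 1 or more in size. Values of single samples were not used here, sequencing depth is unknown, and the labels do not say whether the 3 samples of a group were separate cultures. Standard errors were derived from the fold change and F, and 95% intervals below rest on them. The standard errors of the 7 members ran from 0.15 to 0.39 on the log2 scale. Nearly every listed gene (5757 of 5759) was past the threshold in at least 1 comparison, so being in the table already means that a member changed somewhere, and the counts below are descriptions. In bulk RNA, a lower level in each cell and fewer cells that carry the transcript cannot be told apart. Of 20 T lymphoblast markers 8 were in the table, with average levels of the 8 from 4.75 to 10.14 (log2 CPM). Among the 8 were CD7, CD1E, CD3G and ZAP70. The B cell marker CD79A was there at 3.94, and none of 5 myeloid or 3 erythroid markers was listed. The part of these markers in the results was not tested.

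The inhibitors NFKBIA and NFKBIE were lower in every treated group. NFKBIA (gene ID 4792, chr14:35401513-35404749) encodes IkB alpha, the inhibitor that is resynthesised fastest after NF-kB activation. Its log2 fold change in the authors' deposited table was -1.79 after 1 h of 955 (95% interval -2.41 to -1.17), -2.87 after 6 h of 955 (-3.52 to -2.22) and -3.39 after 6 h of SNS-032 (-4.06 to -2.72). These are 28.9%, 13.7% and 9.57% of the DMSO level. At 6 h the FDR of the authors' deposited table was 1.35e-06 with 955 and 2.52e-07 with SNS-032, and the 1 h value is part of why the gene was chosen, so it carries no test.

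NFKBIE (4794, chr6:44258166-44265551), which encodes IkB epsilon, was lower still at 1 h. Its log2 fold changes in the authors' deposited table were -2.22 after 1 h of 955 (-3.00 to -1.43), -2.31 after 6 h of 955 (-3.10 to -1.51) and -2.69 with SNS-032 (-3.50 to -1.88), with FDRs of 0.000727, 3.25e-05 and 5.32e-06. At 1 h that was rank 25 from the lowest among the 5759 genes of the authors' deposited table, with TNFRSF1A at rank 50 and NFKBIA at rank 80. NFKBIE had the lowest average level of the 7 members, 1.86 (log2 CPM), and the widest intervals, so its order relative to the other 2 at 1 h is within the error.

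NFKBIB (4793, chr19:38899666-38908889), the gene of IkB beta, behaved otherwise. After 1 h of 955 it was at 99.3% of DMSO, a log2 fold change of -0.01 (-0.42 to 0.40) in the authors' deposited table. After 6 h of 955 it was at -0.83 (-1.25 to -0.42, FDR 0.00215), under the fold-change bound, and with SNS-032 it fell past it, to -1.26 (-1.68 to -0.84, FDR 2.66e-05), per the authors' deposited table. With the median of the listed genes set to 0 instead, the 955 value at 6 h changed sign to 0.19 and the SNS-032 value was -0.19.

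TNFAIP3 (7128, chr6:137866349-137883312) encodes A20, a ubiquitin-editing enzyme that shuts off signalling from TNF receptors. Its values were lower from 1 h on, and by less: -0.81 after 1 h of 955 (-1.12 to -0.50, FDR 0.00168), -0.83 after 6 h of 955 (-1.14 to -0.52, FDR 0.000101) and -1.10 with SNS-032 (-1.41 to -0.78, FDR 2.65e-06), per the authors' deposited table. The level was thus 57.1%, 56.2% and 46.8% of DMSO, and TNFAIP3 was past the threshold with SNS-032 only, as the member nearest to the bound. Centred on the median of the listed genes, its 955 value at 6 h was 0.19 and its SNS-032 value -0.03. The gene shares 1885 bases with the lncRNA gene WAKMAR2 in RefSeq, and the use of strand in counting is not given in the sources used here, so reads of both genes cannot be told apart.

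The receptor TNFRSF1A (7132, chr12:6328771-6342076) is the main receptor through which TNF reaches NF-kB and cell death. Its log2 fold change in the authors' deposited table was -2.0 after 1 h of 955 (-2.56 to -1.44), -2.53 after 6 h of 955 (-3.10 to -1.96, FDR 7.56e-07) and -2.56 with SNS-032 (-3.13 to -1.98, FDR 6.28e-07). The gene stood at 25.1% of DMSO after 1 h and at 17.3% and 17% after 6 h. The 1 h value also served to choose the gene and carries no test, so the share of the decrease present by 1 h is a description. It depends on the scaling. With the median of the 13 mitochondrially encoded mRNAs set to 0, the values were -2.67, -4.6 and -4.9 in the same order. With the median of the listed genes set to 0, they were -1.94, -1.5 and -1.49.

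**Figure D1:**
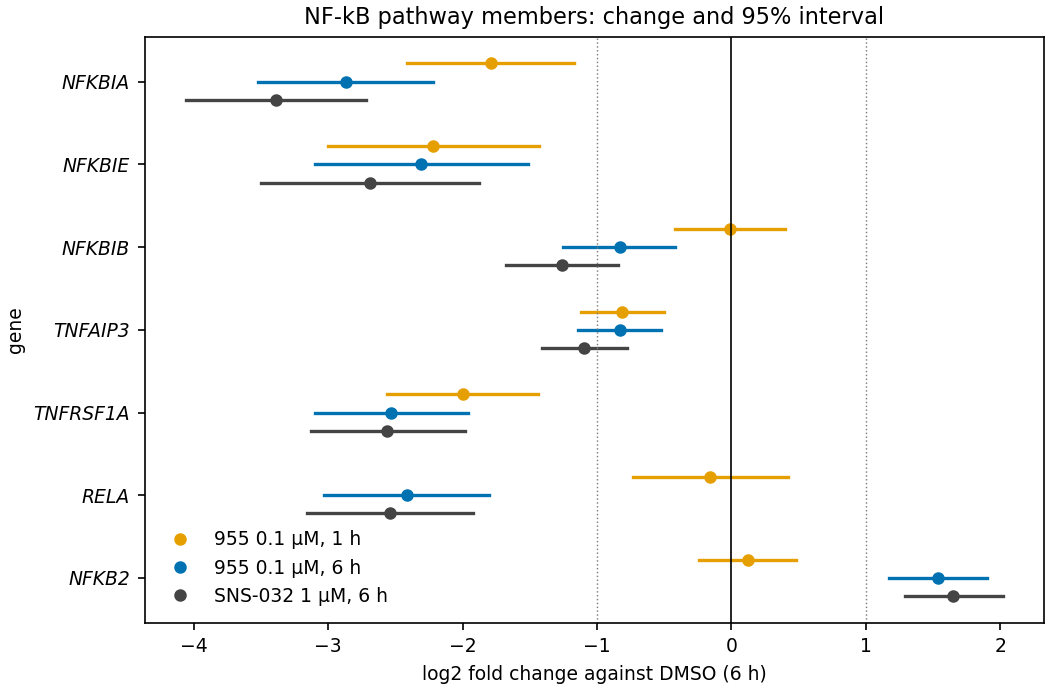
Log2 fold change against DMSO (horizontal axis) of the 7 listed members (vertical axis) in the authors' deposited table, for SNS-032 (6 h) and 955 (1 h and 6 h). Points are the deposited values, lines are 95% intervals from the implied standard errors and dotted lines mark the fold-change bound. NFKBIA, NFKBIE and TNFRSF1A lie below -1 in all 3 comparisons, RELA does so at 6 h only, and NFKB2 is at 1.54 and 1.65 at 6 h.

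Under the authors' scaling the 2 listed subunits, RELA and NFKB2, differed from DMSO past the threshold at 6 h and not at 1 h, in opposite directions, while after mitochondrial scaling NFKB2 was lower by a like amount at both times (-0.56 and -0.53). RELA (5970, chr11:65653601-65663857) encodes p65, the subunit with the main activation domain. After 1 h of 955 it was at 89.8% of DMSO, a log2 fold change of -0.16 (-0.73 to 0.42, FDR 1) in the authors' deposited table. After 6 h it fell to -2.41 with 955 (-3.03 to -1.80, FDR 2.44e-05) and to -2.54 with SNS-032 (-3.16 to -1.92, FDR 1.52e-05), per the authors' deposited table; this is 18.8% and 17.2% of DMSO. RELA shares 852 bases with the lncRNA gene RELA-DT in RefSeq.

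NFKB2 (4791, chr10:102394110-102402529) encodes p100, which acts as an inhibitor until it is processed to the subunit p52. It was at 108% of DMSO after 1 h of 955, a log2 fold change of 0.12 (-0.24 to 0.48, FDR 1) in the authors' deposited table. After 6 h it was higher under the authors' scaling, at 1.54 with 955 (1.17 to 1.90, FDR 1.52e-07) and 1.65 with SNS-032 (1.29 to 2.02, FDR 4.67e-08), per the authors' deposited table, or 291% and 314% of DMSO, and lower when scaled on mitochondrial mRNAs, at -0.53 and -0.69. It was the 1 member of the 7 with a positive fold change at 6 h.

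Levels per group in CPM (counts scaled to library size) were also derived, by taking the average level as that of 4 groups of equal size. They are approximate, have no replicate error, and are not comparable between genes because CPM is not divided by length. NFKBIA went from 50.0 CPM in DMSO to 14.5 after 1 h of 955, 6.84 after 6 h and 4.78 with SNS-032. TNFRSF1A went from 54.4 to 13.6, 9.43 and 9.24 CPM, and NFKBIE from 9.25 to 1.99, 1.87 and 1.44 CPM. RELA was at 114.1, 102.5, 21.5 and 19.6 CPM in the same order, and NFKB2 at 13.6, 14.8, 39.6 and 42.9 CPM. TNFAIP3 was at 70.7, 40.4, 39.7 and 33.1 CPM and NFKBIB at 39.9, 39.6, 22.4 and 16.7 CPM. For each of the 6 members that were lower, the levels were highest in DMSO, then in 955 at 1 h, then in 955 at 6 h, and lowest in SNS-032, but the first step of NFKBIB and RELA, several later steps and those between the compounds, other than that of NFKBIB, have 95% intervals that include 0.

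**Figure D2:**
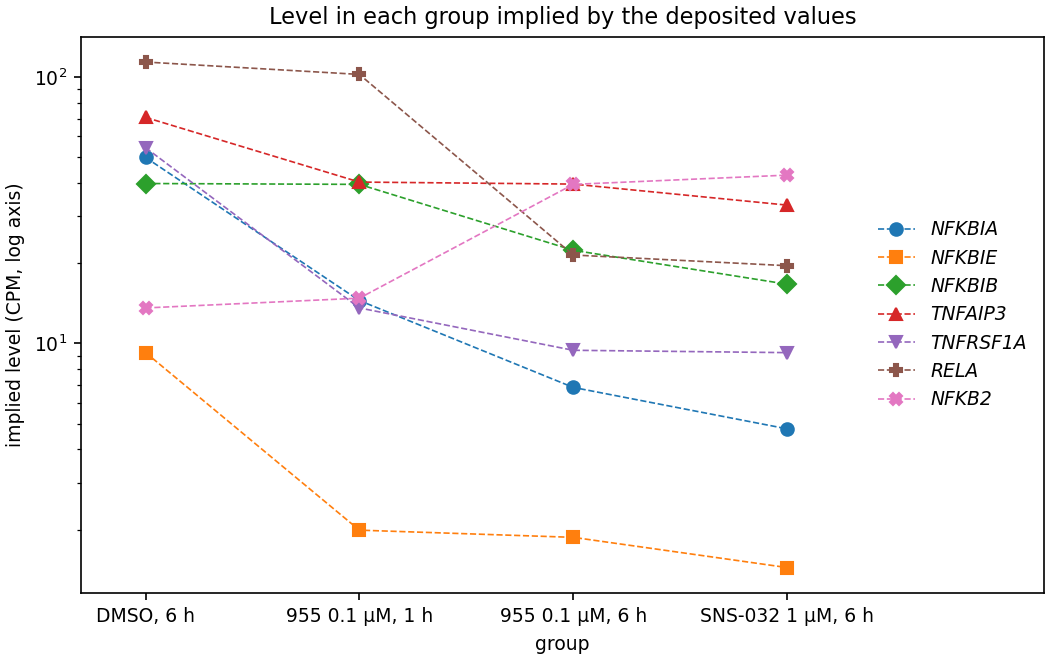
Level of each of the 7 members in CPM (vertical log axis) in the 4 groups (horizontal axis), derived from the average level and the log2 fold changes of the authors' deposited table. Dashed lines only join the values of a gene, and the vertical order of genes is not a comparison of their abundance. The drop from 50.0 to 14.5 CPM for NFKBIA comes by 1 h, that of RELA from 102.5 to 21.5 CPM between the 1 h and 6 h groups.

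After 1 h of 955, NFKBIA, TNFRSF1A and NFKBIE, 3 of the 7 members, were past the threshold, all lower. Over all listed genes 8.44% were past it, 7.71% lower and 0.729% higher, and nothing is read from the comparison because 1 h values led to the choice of members. After 6 h of 955, 5 members were past the threshold, 4 lower and NFKB2 higher, against 85.3% of listed genes (50.1% lower and 35.2% higher). NFKBIB and TNFAIP3 were the members under the fold-change bound. With SNS-032 all 7 were past it, 6 lower and 1 higher, against 90.2% of listed genes (52.5% lower and 37.8% higher). The median log2 fold change of the 7 members in the authors' deposited table was -0.81 at 1 h, -2.31 after 6 h of 955 and -2.54 with SNS-032, against -0.05, -1.03 and -1.07 over all listed genes. NFKBIA, TNFRSF1A and NFKBIE were past the threshold and lower in all 3 comparisons, as were 5.49% of listed genes.

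The 2 times of 955 were compared at the same dose, as the difference between the 6 h and 1 h fold changes. The DMSO term cancels in it, so no vehicle accounts for time. Longer exposure to 955 and longer time in culture therefore cannot be told apart here. The test is approximate: the standard error came from the 2 implied standard errors, and p-values were adjusted by the Benjamini-Hochberg method over the 5759 listed genes. RELA was lower at 6 h than at 1 h by a log2 difference of -2.26 (-2.85 to -1.66, adjusted p 1.01e-05) and NFKB2 was higher by 1.42 (1.06 to 1.78, adjusted p 1.43e-07). In this contrast 3 of the 7 members were past the threshold, these 2 and NFKBIA, against 62.7% of all listed genes (35.6% lower and 27% higher). NFKBIA differed by -1.08 (-1.71 to -0.45) and TNFRSF1A by -0.53 (-1.10 to 0.03). Since the 1 h values of both helped to choose them, these differences are descriptions with no test. NFKBIB differed by -0.82 (-1.24 to -0.41, adjusted p 0.000726), under the bound. NFKBIE differed by -0.09 (-0.88 to 0.70, adjusted p 0.827) and TNFAIP3 by -0.02 (-0.34 to 0.29, adjusted p 0.884). Under the authors' scaling, a further log2 difference of -1 between 1 h and 6 h lies outside the interval for TNFAIP3 and NFKBIE. It lies inside that for TNFRSF1A. Scaled on mitochondrial mRNAs, 6 members were past the threshold in place of 3, all lower at 6 h (61.6% of listed genes were past it), and the NFKB2 difference became 0.02 (adjusted p 0.905).

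**Figure D3:**
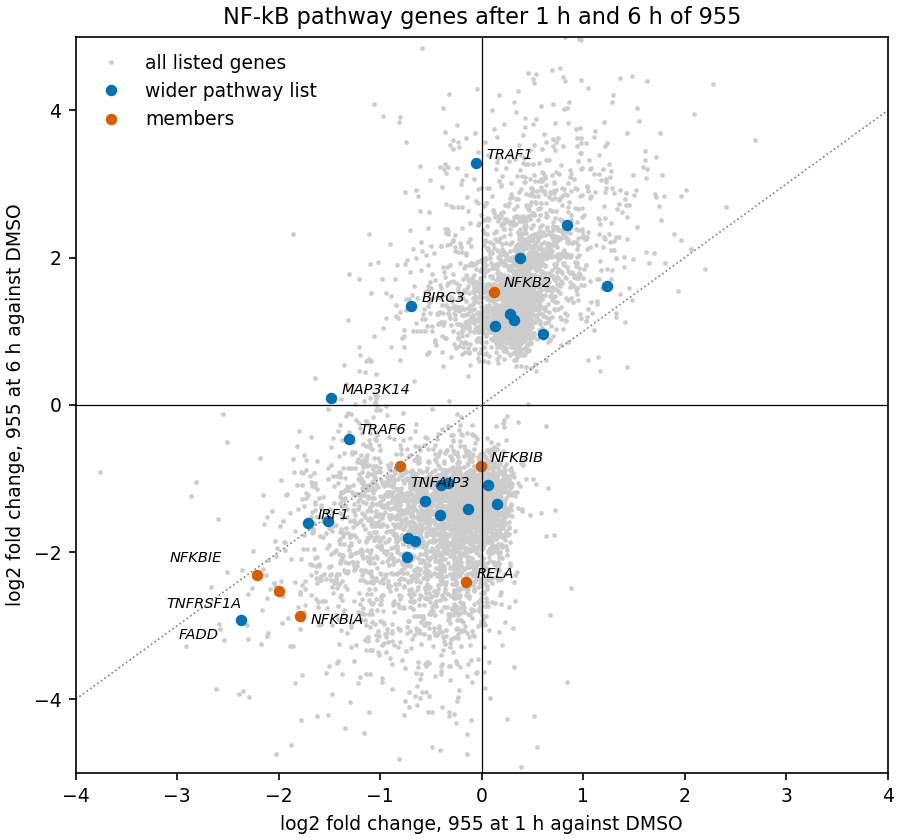
Log2 fold change after 6 h of 955 (vertical axis) against that after 1 h (horizontal axis) in the authors' deposited table, for all listed genes (grey), the wider pathway list (blue) and the 7 members (orange). The 2 axes share the DMSO samples, the dotted line marks equal values and 37 genes lie beyond the axes. NFKBIE and TNFAIP3 lie near the dotted line, RELA at -0.16 and -2.41 lies far under it, and MAP3K14 at -1.48 and 0.09 lies above it.

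At 6 h no member differed between the compounds past the threshold, at doses of 0.1 µM for 955 and 1 µM for SNS-032, so compound and dose cannot be told apart. In the approximate contrast of 955 minus SNS-032, 0 of the 7 members were past the threshold, against 1.11% of listed genes (with 955 0.851% were higher and 0.26% lower). On the adjusted p alone the count was also 0 of 7, against 2.73% of listed genes. After mitochondrial scaling 2 of 7 had an adjusted p under 0.05, NFKBIB at 0.7 (adjusted p 0.0288) and TNFAIP3 at 0.54 (0.0244), against 11.3% of listed genes, and 0 were past the threshold. That scaling also moved NFKBIA to 0.79 (adjusted p 0.115) and NFKB2 from -0.11 to 0.16. Under the authors' scaling the largest difference was that of NFKBIA, 0.52 (-0.14 to 1.18, adjusted p 0.475), followed by NFKBIB at 0.42 (0.01 to 0.84, adjusted p 0.329). NFKBIE differed by 0.38 (-0.42 to 1.18), TNFAIP3 by 0.26 (-0.05 to 0.58), RELA by 0.13 (-0.49 to 0.74), TNFRSF1A by 0.03 (-0.55 to 0.60) and NFKB2 by -0.11 (-0.48 to 0.25). Under the authors' scaling, the intervals reach 1.18 for NFKBIA and NFKBIE, past the fold-change bound, and stay within the bound for the others. Intervals after mitochondrial scaling are not given here.

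The direction of some members, and the size of every member's change, depend on the scaling. NFKB2 changed direction on mitochondrial scaling. Centred on the median of the listed genes, NFKBIB and TNFAIP3 did so after 6 h of 955, both to 0.19. The 13 mitochondrially encoded mRNAs, which another polymerase makes, were higher in the authors' deposited table, by log2 fold changes of 0.42 to 0.73 after 1 h of 955, 1.90 to 2.34 after 6 h of 955 and 2.25 to 2.59 with SNS-032. Setting their median to 0 lowers every gene by 0.67, 2.07 and 2.35. NFKBIA was then at -2.46, -4.94 and -5.73, TNFRSF1A at -2.67, -4.60 and -4.90 and RELA at -0.83, -4.48 and -4.89. TNFAIP3 passed the threshold in each comparison, at -1.48, -2.90 and -3.44. At 6 h the split of members past the threshold went from 4 lower and 1 higher to 6 lower and 0 higher with 955, and from 6 lower and 1 higher to 6 lower and 0 higher with SNS-032. At 1 h it went from 3 to 4 lower. Under this scaling 30.9% of listed genes were past the threshold at 1 h, 68.9% after 6 h of 955 and 74.1% with SNS-032.

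**Figure D4:**
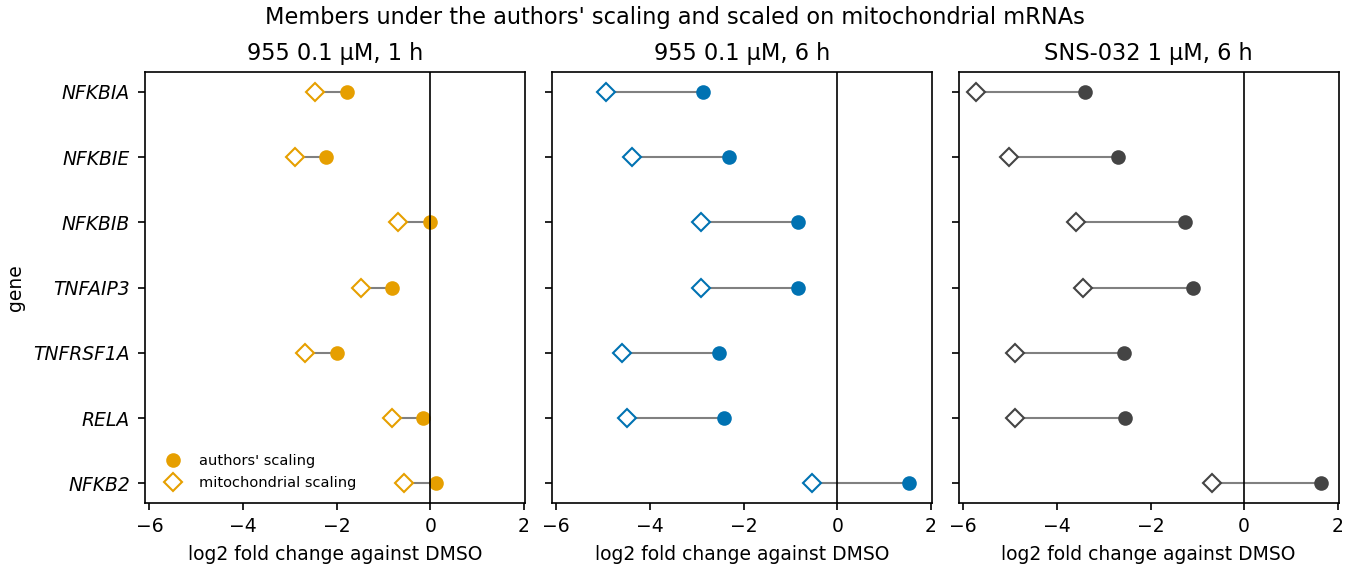
Log2 fold change against DMSO (horizontal axis) of the 7 members (vertical axis) in 3 panels, for SNS-032 (6 h) and 955 (1 h and 6 h). Filled circles are the values of the authors' deposited table and open diamonds are values after scaling on the 13 mitochondrially encoded mRNAs. NFKB2 crosses 0 in each panel, to -0.56, -0.53 and -0.69, and the other members stay negative.

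The wider pathway was described with a list of 88 other genes of known role, of which 24 were in the table. After 1 h of 955, 5 of the 24 passed the threshold, all lower, against 8.44% of all listed genes. After 6 h of 955, 21 were past it, 13 lower and 8 higher, against 85.3% of listed genes. With SNS-032 19 were, 12 lower and 7 higher, against 90.2%. Mitochondrial scaling changed these splits to 13 lower and 0 higher at 1 h, 16 lower and 1 higher with 955 at 6 h and 19 lower and 1 higher with SNS-032, where 30.9%, 68.9% and 74.1% of listed genes were past the threshold. Counts at 6 h were thus near those of the table as a whole. The list was written with earlier results of these data known. None of its 9 ligand genes, such as TNF and LTA, and none of REL, NFKBIZ and NFKBID was in the table.

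Receptor-proximal genes changed in both directions. FADD, the adaptor that joins death receptors to caspase 8, fell early and furthest: -2.37 after 1 h of 955 (FDR 2.37e-06), -2.92 after 6 h (1.32e-09) and -3.94 with SNS-032 (2.25e-11), per the authors' deposited table. Under the authors' scaling FADD was the 1 gene of the 24 past the threshold in the contrast of the compounds, against 1.11% of listed genes. The difference was 1.02 (0.49 to 1.55, adjusted p 0.029), a call lost when the standard error ignores the shared control (adjusted p 0.481). Scaled on mitochondrial mRNAs, FADD differed by 1.29 (adjusted p 0.00216) and BCL10 by 1.16 (adjusted p 0.0225), both past the threshold. RIPK1, the kinase recruited to TNFRSF1A, was at -0.74 at 1 h (FDR 0.377) and fell to -2.07 with 955 (0.00032) and -1.93 with SNS-032 (0.00053) at 6 h, per the authors' deposited table.

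TRAF1, an adaptor and known NF-kB target, was at -0.06 at 1 h (FDR 1) and rose to 3.28 with 955 (4.83e-06) and 3.51 with SNS-032 (2.14e-06), per the authors' deposited table. It was the gene of the 24 that stayed higher past the threshold after mitochondrial scaling, at 1.21 with 955 and 1.17 with SNS-032. TNFRSF13C, the receptor for BAFF, rose at 6 h to 2.45 with 955 (FDR 1.58e-06) and 2.26 with SNS-032 (4.29e-06), per the authors' deposited table, but was at 0.37 and -0.08 after mitochondrial scaling. Both genes started low, at a derived 1.29 CPM for TRAF1 and 1.35 CPM for TNFRSF13C in DMSO, and depth per sample is unknown. TRAF6, an E3 ligase adaptor, fell at 1 h to -1.31 (FDR 0.000165) and was at -0.46 after 6 h of 955 (FDR 0.0828) and -0.68 with SNS-032 (FDR 0.00744), per the authors' deposited table. After mitochondrial scaling TRAF6 was at -1.99, -2.53 and -3.03 in the same order. The difference between 6 h and 1 h of 955 then went from 0.85 (adjusted p 0.000357) to -0.54 (adjusted p 0.0141).

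Of the kinase genes, MAP3K14 encodes NIK, which starts the noncanonical branch that processes the NFKB2 product. It fell after 1 h of 955 to -1.48 (FDR 4.65e-05) and was at 0.09 after 6 h (FDR 1) and 0.32 with SNS-032 (FDR 0.26), per the authors' deposited table. The difference between 6 h and 1 h was 1.57 (1.17 to 1.97, adjusted p 1.33e-07), but 0.17 (adjusted p 0.428) after mitochondrial scaling, which put MAP3K14 at -1.98 with 955 and -2.02 with SNS-032 at 6 h. CHUK, the gene of IKK alpha, was at 0.06 at 1 h (FDR 1) and fell to -1.09 with 955 (3.39e-06) and -1.04 with SNS-032 (5.93e-06) at 6 h, per the authors' deposited table. IKBKG, the regulatory subunit NEMO, stood at 0.97 after 955 (FDR 0.000683) and 1.16 with SNS-032 (8.6e-05), per the authors' deposited table, and at -1.1 and -1.19 after mitochondrial scaling. A near-identical copy in the genome makes its counts uncertain.

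In the antigen receptor branch, BCL10 fell at 6 h to -1.85 after 955 (FDR 5.12e-05) and -2.73 after SNS-032 (4.6e-07), and PRKCQ to -1.50 (6.86e-08) and -1.01 (1.74e-05), in the authors' deposited table. Both are steps between the T cell receptor and the IkB kinases. Of 16 ubiquitin regulators 5 were listed. BIRC3, the ligase cIAP2, was at -0.70 at 1 h (FDR 0.0526) and rose to 1.34 with 955 (9.82e-06) and 1.35 with SNS-032 (8.62e-06) at 6 h, per the authors' deposited table, against -0.73 and -1.0 after mitochondrial scaling. RBCK1, a part of the linear ubiquitin ligase, rose to 1.15 (FDR 8.37e-08) and 1.16 (6.6e-08) in the authors' deposited table, against -0.92 and -1.18 after mitochondrial scaling. UBE2N, the conjugating enzyme of lysine-linked chains, fell to -1.35 (FDR 0.00264) and -1.67 (0.000577) in the authors' deposited table. Its partner UBE2V1 stood at 1.61 after 955 (FDR 0.00281) and 0.80 with SNS-032 (FDR 0.166), per the authors' deposited table, and is uncertain because a readthrough transcript covers it.

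Of 27 known NF-kB target genes 6 were in the table, and after 6 h of 955 5 were past the threshold and lower and 1 higher, against 50.1% lower and 35.2% higher over all listed genes. Mitochondrial scaling made this 5 lower and 0 higher. IRF1, a transcription factor, was low by 1 h, at -1.72 (FDR 1.52e-06), and stayed at -1.61 with 955 (2e-08) and -1.57 with SNS-032 (2.52e-08) at 6 h, per the authors' deposited table. GADD45B, a stress-response gene, had -1.52 (FDR 0.0104), -1.57 (0.000986) and -1.22 (0.00827) in the same order in the authors' deposited table. Under the authors' scaling both have the early, level profile of NFKBIE and TNFAIP3. The difference between 6 h and 1 h of 955 was 0.11 for IRF1 (-0.23 to 0.44) and -0.06 for GADD45B (-0.78 to 0.67). After mitochondrial scaling it was -1.29 for IRF1, -1.45 for GADD45B, -1.49 for NFKBIE and -1.42 for TNFAIP3. CD83 was at -0.72 at 1 h (FDR 0.112) and fell to -1.81 (3.4e-06) and -1.83 (2.78e-06) at 6 h in the authors' deposited table. TNFAIP2 was the target that rose, to 2.0 with 955 (FDR 2.45e-08) and 2.01 with SNS-032 (2.02e-08), per the authors' deposited table, and it was at -0.07 and -0.34 after mitochondrial scaling.

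**Figure D5:**
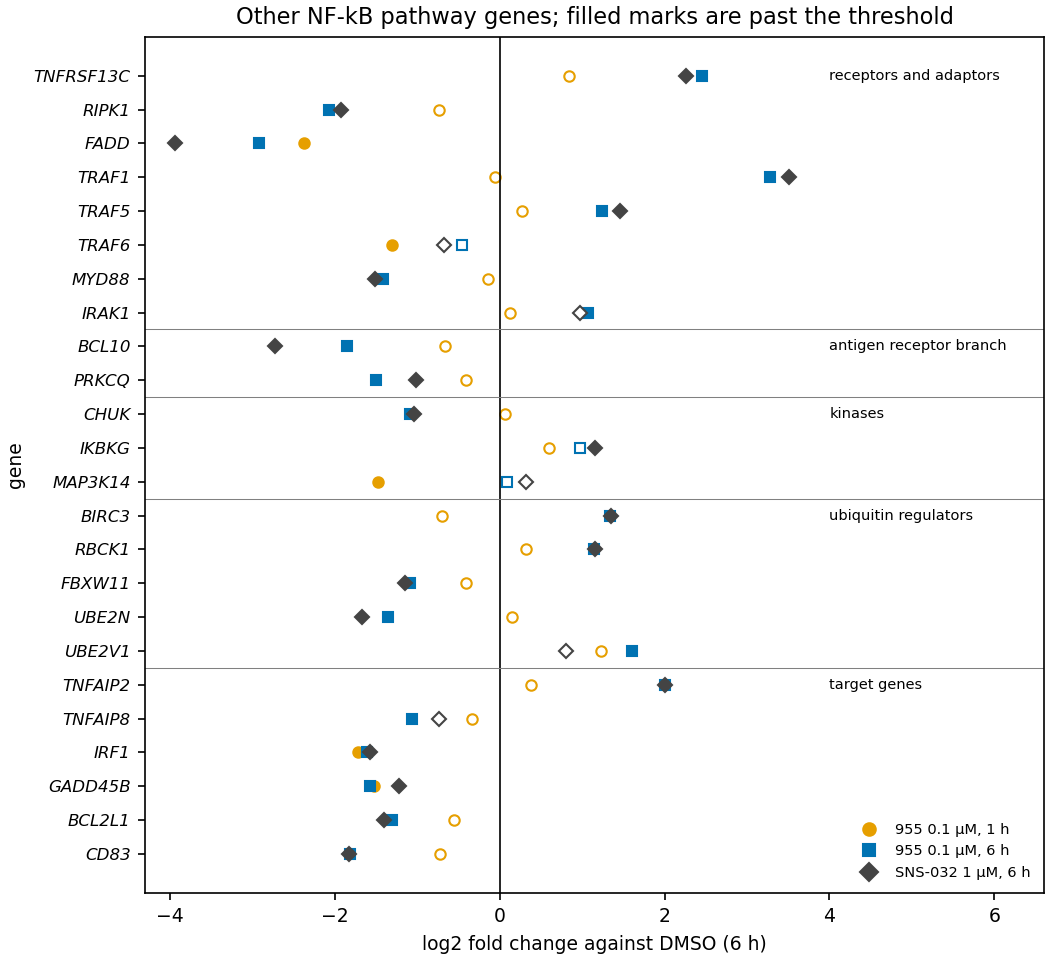
Log2 fold change against DMSO (horizontal axis) in the authors' deposited table for the 24 listed genes of the wider pathway list (vertical axis), grouped by role. Circles are 955 at 1 h, squares 955 at 6 h and diamonds SNS-032 at 6 h, and filled marks are past the threshold. The filled circles are those of FADD, TRAF6, MAP3K14, IRF1 and GADD45B, all to the left of 0.

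The genes most like NFKBIA in pattern, by Euclidean distance over the 3 log2 fold changes among listed genes at or above the median average level, included CSTF1 (0.35), VPS18 (0.38), ZNF689 (0.67) and ORAI1 (0.73). CSTF1, a subunit of the cleavage stimulation factor, had -1.47, -2.99 and -3.44 in the authors' deposited table. Those most like TNFRSF1A were CDKN1B (0.35), MEPCE (0.62), PPM1D (0.65), TFAP2C (0.67) and DUSP7 (0.69). CDKN1B, the inhibitor p27, had -2.16, -2.22 and -2.53 in the authors' deposited table. The distances rest on 3 values that share the DMSO samples and are descriptions.

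The 7 listed members are compact genes. Their RefSeq spans run from 3.24 kb (NFKBIA) to 17 kb (TNFAIP3), and each is shorter than the median of 22.9 kb over the 5608 listed genes with a gene model. NFKBIE spans 7.39 kb, NFKB2 8.42 kb, NFKBIB 9.22 kb, RELA 10.3 kb and TNFRSF1A 13.3 kb. The 441 genes that were past the threshold and lower at 1 h and had a model had a median span of 14 kb. NFKBIA and NFKBIE, the shortest members, were past the threshold at 1 h. The longer TNFRSF1A was too, while NFKB2, NFKBIB and RELA, with spans in between, were not. TNFAIP3, the longest, was at -0.81 at 1 h, under the fold-change bound. Any part of span in the timing was not tested. In GENCODE release 29 the principal transcripts have 6 exons in NFKBIA, NFKBIB and NFKBIE, 9 in TNFAIP3, 10 in TNFRSF1A, 11 in RELA and 23 in NFKB2.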

How the data were processed

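RNA of 12 MOLT4 samples (4 groups of 3, assigned from their titles) was extracted with a kit and made into mRNA sequencing libraries, per the labels' protocols. The submitters' processing notes name DESeq2 and the build hg38, with no role given. An F statistic and an average log2 CPM are not DESeq2 outputs, so the tool behind the table is unknown, and everything derived from F assumes that it tests the fold change beside it with 1 numerator degree of freedom. The aligner, counter and annotation are not given in the sources used here. Per the file headers, the deposited log2 fold change, average log2 CPM, F statistic (a score), p-value and FDR are the authors' own. Values per sample were not used here, so no sample was refitted.

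That the fold changes are on a log2 scale was read from the values: the smallest of the genes' largest absolute changes was 1.001. Gene IDs were matched to RefSeq (5727 of 5759). Implied standard errors were the size of each fold change divided by the root of its F, and denominator degrees of freedom (11.3 to 23.3 for the members) were solved from F and p with scipy 1.17.1. These gave the 95% intervals and the contrasts of 2 treated groups, with the root mean square of both standard errors, Benjamini-Hochberg adjustment over all listed genes, an adjusted p under 0.05 and a difference of 1 or more in size. The contrast was tested on simulated data.

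The members and lists were chosen with earlier results of these data known, and the promoter motifs and gene spans were chosen after the values were seen. Named genes are all members and, from each role list, those past the threshold at 1 h and up to 4 with the largest change after 6 h of 955, plus the 5 nearest in pattern to NFKBIA and to TNFRSF1A. Of the genes near in pattern and of the marker lists, 1 gene each is not reported here. Alternatives were other thresholds, 2 other scalings and 2 other standard errors.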

Additional observations from a re-analysis of the deposited data

Results flagged for a closer look

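Between 1 h and 6 h of 955, 3 of the 7 members differed past the threshold in the approximate test, against 62.7% of listed genes. The log2 difference was -2.26 for RELA, 1.42 for NFKB2 and -1.08 for NFKBIA. The value of NFKBIA at 1 h helped to choose the gene, so its difference is a description. After mitochondrial scaling the differences were -3.65, 0.02 and -2.48.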

How the results depend on the processing

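No paired analysis was possible because the table holds comparisons and no values per sample, and for the same reason no replicate could be left out. With a fold-change bound of 2 on the log2 scale, the members past the threshold went from 3 to 1 (NFKBIE) after 1 h of 955 and from 7 to 4 with SNS-032. The share of all listed genes at that bound was not computed, so nothing is read from these counts. With mitochondrial scaling the members past the threshold went from 3 to 6 in the contrast of 6 h with 1 h of 955. Over all listed genes the share there was 62.7% before and 61.6% after. The wider list went from 5 to 13 genes at 1 h, while the share of all listed genes went from 8.44% to 30.9%. Counts of members under the other alternatives stayed within 1.5 times. Of 75 values of the 25 named members and pathway genes, mitochondrial scaling reversed the sign of 21. In the order 955 at 1 h, 955 at 6 h and SNS-032 these became -0.56, -0.53 and -0.69 for NFKB2, -0.07, -1.1 and -1.19 for IKBKG, -0.35, -0.92 and -1.18 for RBCK1 and -0.29, -0.07 and -0.34 for TNFAIP2. At 6 h with 955 and SNS-032 they became -1.98 and -2.02 for MAP3K14, -0.73 and -1.0 for BIRC3 and -0.46 and -1.55 for UBE2V1, with SNS-032 alone -0.08 for TNFRSF13C, and at 1 h -0.62 for CHUK and -0.52 for UBE2N. Centring on the median of the listed genes reversed 7, to 0.04 (1 h) and 0.19 (955 at 6 h) for NFKBIB, 0.19 for TNFAIP3 with 955 at 6 h, 0.57 and 0.39 for TRAF6 at 6 h, and with SNS-032 0.06 for PRKCQ and 0.03 for CHUK. Each reversal follows from subtracting 1 number from all genes. Depth per sample is unknown, which limits what can be said of NFKBIE, the member of lowest level.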
